A study of Brassica rapa subsp. pekinensis with 6 samples.

Results

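The miR1885 family is a microRNA (miRNA) family known from Brassica plants, and its members here were all small RNAs that the deposited table names miR1885 or MIR1885. Of the 1159 rows of the table, 2 carried this name, bra-MIR1885b-p3 and bra-MIR1885b-p5, and each had a sequence of its own among 889 distinct mature sequences. The small RNAs came from germinated seeds of the Chinese cabbage doubled haploid line 'FT', which is 1 genotype in all libraries. In the non-vernalized group (Nor, 3 libraries), germinated seeds stayed at room temperature in the dark for about 48 h. In the vernalized group (Ver, 3 libraries), germinated seeds were held at 4 °C in the dark for 25 days, and both groups were sampled at a like length. The study took the seeds of 1 dish as a biological replicate. Its methods do not say whether a dish was divided between the groups. Temperature and duration changed together between the groups and cannot be told apart. Whole seeds were used, so fewer cells of a type and less small RNA per cell cannot be told apart either.

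Plant miRNAs are cut from a folded precursor RNA by a Dicer-like enzyme, which leaves a duplex of small RNAs from the 5′ and the 3′ arm of the hairpin. One strand is loaded into an Argonaute protein and directs it to complementary transcripts, while the other strand is usually lost. The MIR1885 locus is thought to have arisen from a disease resistance gene of the TIR-NBS-LRR class. In Brassica, the miRBase mature miR1885 is known to act on resistance genes of this class and, through secondary small RNAs, on a photosynthesis gene, to rise on infection with Turnip mosaic virus, and to influence flowering time. That knowledge concerns the mature sequence in miRBase, the public miRNA registry, and not other pieces of the same precursor.

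The listed sequences are shown first, because both differ from the mature sequences that miRBase gives for this precursor. They are written 5′ to 3′ as DNA letters, with the seed (bases 2 to 8) in capitals.
bra-MIR1885b-p3: tTGAATGTgactaagaaagcc
bra-MIR1885b-p5: cAGAGTCTttctaagtcacactc
The precursor printed in the table marks a pair of miRBase mature stretches, given here in the same way, stretch 1 being nearer to the 5′ end.
miRBase stretch 1: cATCAATGaaaggtatgattcc
miRBase stretch 2: tACATCTTctccgcggaagctc
bra-MIR1885b-p3 had 21 nt and a GC content of 38.1%, and bra-MIR1885b-p5 had 23 nt and 43.5%. Both miRBase stretches had 22 nt. Neither stretch was the listed mature sequence of any of the 1159 rows. The listed small RNAs therefore carry the family name through their precursor, and their target transcripts were not analysed here. No other listed sequence had the seed of p3 or p5 at its own bases 2 to 8. The longest run shared with another listed sequence was 9 nt for p3 and 8 nt for p5.

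The position of each piece was read from the deposited precursor. The precursor had 355 nt with a GC content of 37.2% and was placed at A06:28158689-28159043 on the plus strand. The study's methods name the B. rapa v3.0 genome for the mRNA reads, and do not say which build the small RNA positions refer to. Both rows named the miRBase precursors bra-MIR1885a and bra-MIR1885b, so that reads could not be split between an a and a b locus. No row with another name listed this precursor or overlapped it. RefSeq annotation of the assembly CAAS_Brap_v3.01, used for names and neighbours only, lists MIR1885A on A06 between the protein-coding genes LOC103827896 and LOC103827897. A precursor of this length was uncommon in the table, where 4 rows had a longer one, up to 632 nt.

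The sequence around both arms is printed to show how the listed small RNAs lie beside the miRBase stretches. The 5′ arm window covers precursor positions 31 to 98 (A06:28158719-28158786), with bra-MIR1885b-p5 in capitals.
5′ arm: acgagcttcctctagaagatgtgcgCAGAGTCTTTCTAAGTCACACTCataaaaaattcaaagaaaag
The 3′ arm window covers positions 230 to 328 (A06:28158918-28159016), once with bra-MIR1885b-p3 and once with the miRBase stretches in capitals.
3′ arm, listed: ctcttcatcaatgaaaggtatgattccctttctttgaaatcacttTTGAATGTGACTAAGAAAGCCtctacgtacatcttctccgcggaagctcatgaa
3′ arm, miRBase: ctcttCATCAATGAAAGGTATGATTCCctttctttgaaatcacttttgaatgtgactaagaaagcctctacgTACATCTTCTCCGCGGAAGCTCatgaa
bra-MIR1885b-p3 spanned precursor positions 275 to 295 (A06:28158963-28158983). It began 18 bases after the end of stretch 1 (positions 235 to 256, A06:28158923-28158944). It ended 6 bases before stretch 2 (positions 302 to 323, A06:28158990-28159011). All of these pieces lay on the 3′ arm, and bra-MIR1885b-p5 lay on the 5′ arm at positions 56 to 78 (A06:28158744-28158766).

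The deposited fold of the precursor was a long stem with 135 base pairs and a free energy of -161.9 kcal/mol. Folding the printed precursor again with RNAfold gave -161.8 kcal/mol, and all 135 pairs were found again. In this fold p5 and p3 faced each other over 19 positions, of which 16 were paired and 3 were not. At the ends, 4 bases at the 5′ end of p5 and 2 bases at the 5′ end of p3 faced no base of the partner. Neither small RNA had such a base at its 3′ end. A Dicer-like product usually carries short overhangs at its 3′ ends, which the listed pair did not show. The listed sequence of a row stands for reads with several ends, per the header, and the spread of ends within a row was not analysed here.

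**Figure D1:**
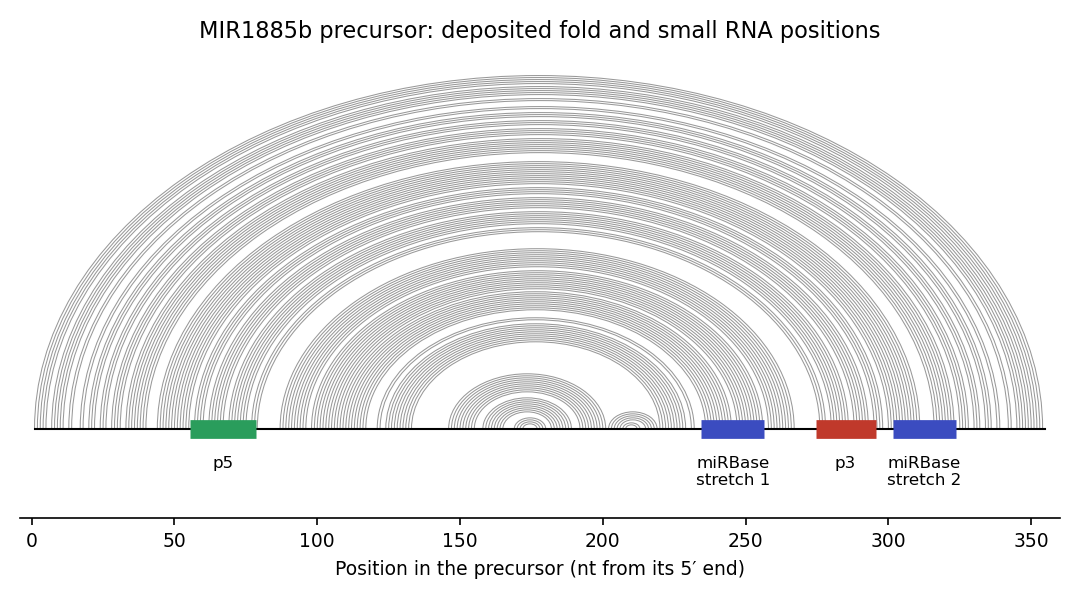
Map of the precursor, with position in nt from its 5′ end on the horizontal axis and each grey arc joining the 2 bases of a pair in the deposited fold. The green box is bra-MIR1885b-p5 (positions 56 to 78), the red box is bra-MIR1885b-p3 (275 to 295), and the blue boxes are the miRBase stretches (235 to 256 and 302 to 323), which flank p3 on the 3′ arm.

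The libraries held between 749852 and 968483 listed reads in Nor and between 589061 and 771529 in Ver. The depths in listed reads overlapped, since Ver 1 (771529 reads) lay above Nor 2 (751398) and Nor 3 (749852). The valid reads that the study gives after its own filtering did not overlap. They were fewer in every Ver library than in every Nor library, so that this depth runs with the group. Reads were seen for 603 to 689 of the distinct sequences in Nor libraries and for 493 to 521 in Ver libraries. This difference in content runs with the group. Replicates differed by more than sampling noise, with a chi-square per degree of freedom between 3.01 and 11.7, so that no library was a copy of another. Levels are given as reads per 1000000 (RPM) listed reads, scaled between libraries by the trimmed mean of M-values (TMM, factors 0.949 to 1.052). The p-values rest on the spread between the libraries of a group.

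bra-MIR1885b-p3, the piece from the 3′ arm, was the third most abundant sequence of the whole table, and its level rose by 1.43-fold in Ver. It held rank 3 in each of the 6 libraries. These values belong to its row, whose reads are summed over isoforms of an arm. Whether reads of the miRBase stretches, which lie on the same arm, were counted in this row could not be determined. The raw reads were 68152, 49589 and 53410 in Nor 1, Nor 2 and Nor 3. They were 69841, 62823 and 57338 in Ver 1, Ver 2 and Ver 3, so that the raw reads of the groups overlapped. After scaling, p3 stood at 66895, 67267 and 71994 RPM in the Nor libraries. In the Ver libraries it stood at 89523, 104508 and 100805 RPM. The scaled groups did not overlap, and the lowest Ver library, Ver 1, lay above the highest Nor library, Nor 3. The Nor libraries averaged 68718 ± 2842 RPM and the Ver libraries 98279 ± 7805 RPM (SD, n = 3). The fitted log2 fold change was 0.52 (SE 0.066), with an adjusted p of 1.02e-04 in edgeR's quasi-likelihood test.

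bra-MIR1885b-p5, the piece from the 5′ arm, rose by 1.17-fold in Ver. Its raw reads were 7940, 5778 and 6245 in Nor and 6882, 5832 and 5478 in Ver, in the order of the replicate numbers, and the groups overlapped. The scaled levels were 7794, 7838 and 8418 RPM in the Nor libraries. They were 8821, 9702 and 9631 RPM in the Ver libraries. All Ver libraries lay above all Nor libraries, with Nor 3 and Ver 1 as the nearest neighbours. Averages were 8016 ± 348.4 RPM over the Nor libraries and 9385 ± 489.0 RPM over the Ver libraries (SD, n = 3). The log2 fold change was 0.23 (SE 0.067) with an edgeR adjusted p of 0.0154. The p5 sequence ranked 17th in the 3 Nor libraries and 16th, 15th and 17th in Ver 1, Ver 2 and Ver 3.

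**Figure D2:**
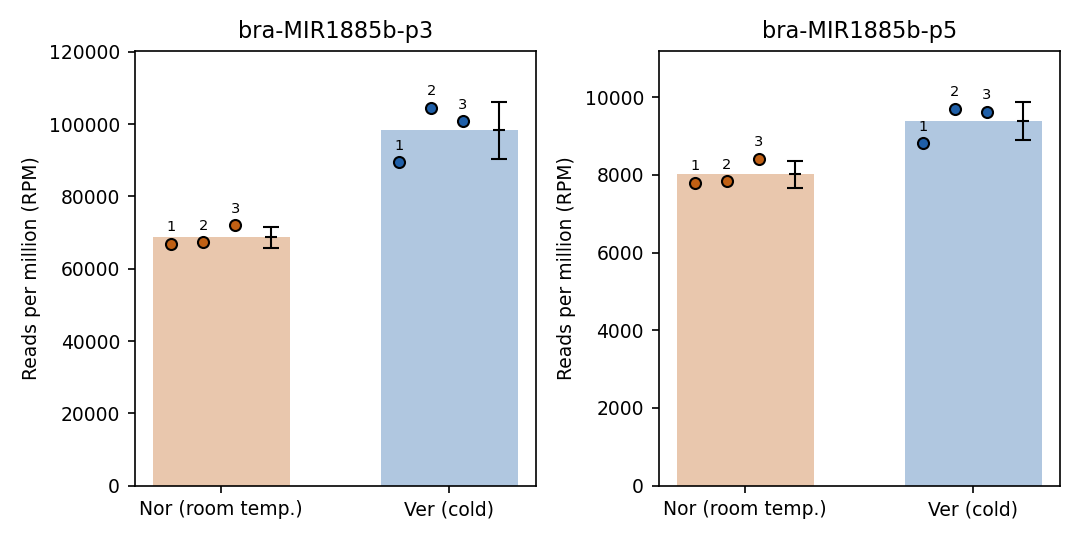
Level of each MIR1885b small RNA in RPM (vertical axis, starting at 0) in the Nor and Ver groups. Points are the 3 libraries of a group with their replicate numbers, bars are means, and the error bar beside the points is the SD. Nor libraries sit between 66895 and 71994 RPM for p3 and between 7794 and 8418 RPM for p5, below every Ver library.

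The 2 sequences were called with many others, since 61.0% of the 405 sequences tested passed an adjusted p under 0.05. Of all sequences tested, 28.1% were called higher in Ver and 32.8% lower. Sequences whose Ver libraries all lay above the Nor libraries made up 31.4% of those tested. A larger log2 fold change than that of p3 was fitted for 122 of the 405 sequences. The study screened at an absolute log2 fold change over 1 and a p of at most 0.05. At these thresholds 175 sequences (43.2%) passed, and neither MIR1885b sequence was among them.

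The median log2 fold change of all sequences tested was -0.19, and it moved to -0.09 with DESeq2 size factors and to -0.06 with the scaling factors of the deposited normalized values. Relative to this median, p3 was higher by 0.71 with TMM, 0.70 with DESeq2 size factors and 0.71 with the deposited factors. For p5 the value relative to the median was 0.42 with each of these scalings. Among the 63 tested sequences with a mean of at least 1000 RPM, 34 were called higher and 23 lower, with a median log2 fold change of 0.23. Of these 63 abundant sequences, 19 had a larger log2 fold change than p3. Before p3 in abundance came bra-miR158-3p, with a log2 fold change of -0.72, and ath-miR166a-3p, with 0.45 (edgeR adjusted p = 1.59e-06 and 1.40e-04).

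**Figure D3:**
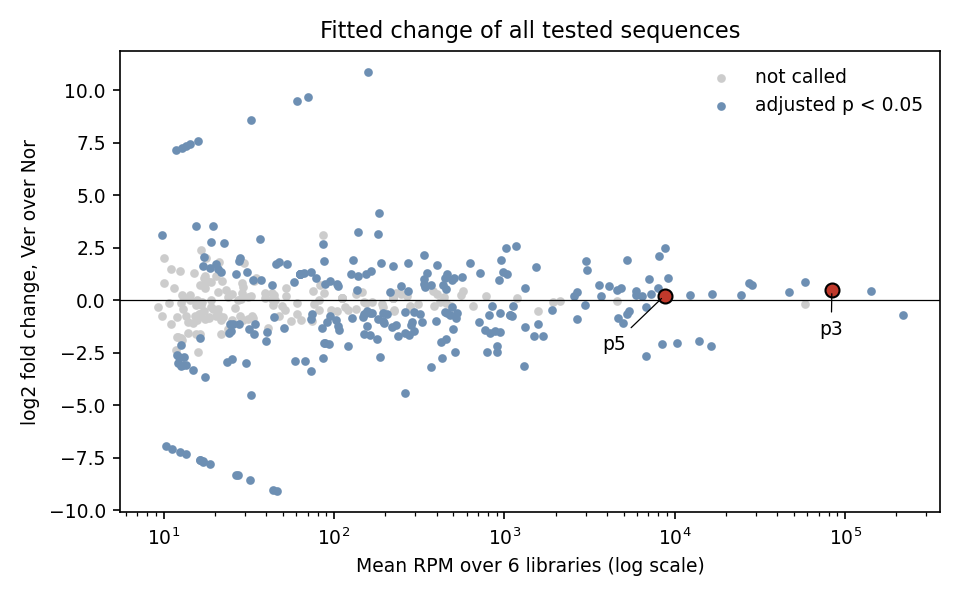
Fitted log2 fold change of Ver over Nor (vertical axis) against mean RPM over the 6 libraries (horizontal axis, log scale) for the 405 sequences tested. Blue points passed an adjusted p under 0.05 and grey points did not. The red points are p3, at 0.52, and p5, at 0.23, and both lie among the abundant sequences on the right.

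The share of all listed reads gives the levels scaled by the library total alone, without TMM factors. In the Nor libraries p3 held 7.04, 6.60 and 7.12% of the listed reads. In the Ver libraries it held 9.05, 10.7 and 9.57%. For a single library the 95% Wilson interval of this share was narrow, for instance 6.99 to 7.09% in Nor 1, and it covers counting error only. The share of p5 averaged 0.807 ± 0.0338% over the Nor libraries and 0.932 ± 0.0514% over the Ver libraries (SD, n = 3). Together they held 7.73 ± 0.314% and 10.7 ± 0.875%, a difference of 2.97 percentage points. A two-sided exact permutation test gave p = 0.1, the smallest value that 3 libraries against 3 allow. The most abundant sequence by its mean over the 6 libraries, bra-miR158-3p, moved in the opposite direction to this joint share. It held between 26.5 and 27.5% of the listed reads in Nor and between 16.1 and 16.4% in Ver. With that sequence left out of the total, the log2 ratio of the joint share fell from 0.47 to 0.27, with no overlap of the groups.

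The sum of both sequences, fitted as 1 value, averaged 76735 ± 3191 RPM over the Nor libraries and 107663 ± 8288 RPM over the Ver libraries (SD, n = 3). It rose by 0.49 on the log2 scale (SE 0.064), at an adjusted p of 1.36e-04 in edgeR. Most of this sum was p3, so it adds little to the value of p3 alone.

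The ratio of the arms was compared next, because it is taken within a library and does not depend on the scaling. The 3′ arm gave 8.58, 8.58 and 8.55 reads per read of the 5′ arm in Nor 1, Nor 2 and Nor 3. In Ver 1, Ver 2 and Ver 3 it gave 10.15, 10.77 and 10.47. The Nor libraries were nearly alike and all Ver libraries lay above them. As a share of the reads of both arms, p3 took 89.57, 89.56 and 89.53% in Nor. It took 91.03, 91.51 and 91.28% in Ver. The 95% Wilson intervals of single libraries ran from 89.28 to 89.82% over the Nor libraries and from 90.83 to 91.71% over the Ver libraries, for counting error only. The mean share rose from 89.55 ± 0.02% to 91.27 ± 0.24% (SD, n = 3), by 1.72 percentage points. The two-sided exact permutation p was 0.1, again the smallest value possible with this design.

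On the log2 scale the ratio of p3 to p5 reads averaged 3.10 ± 0.003 over the Nor libraries and 3.39 ± 0.043 over the Ver libraries (SD, n = 3), a shift of 0.29. This was set beside the other hairpins that had a tested sequence on each arm with at least 10 reads in every library, 67 in all with MIR1885b. The groups did not overlap in 51 of them (76.1%), and in 25 of these the 3′ arm moved up in Ver. The median absolute shift over the 67 hairpins was 0.79, and 53 hairpins shifted by more than MIR1885b. The spread within groups was a pooled SD of 0.031 for MIR1885b, against a median of 0.159. Reads were more numerous than for MIR1885b in 5 of the hairpins. Each of these had either bra-miR158-3p or ath-miR166a-3p on its 3′ arm. Of the 67 hairpins, 20 shared the sequence of an arm with another one and so are not independent of each other.

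**Figure D4:**
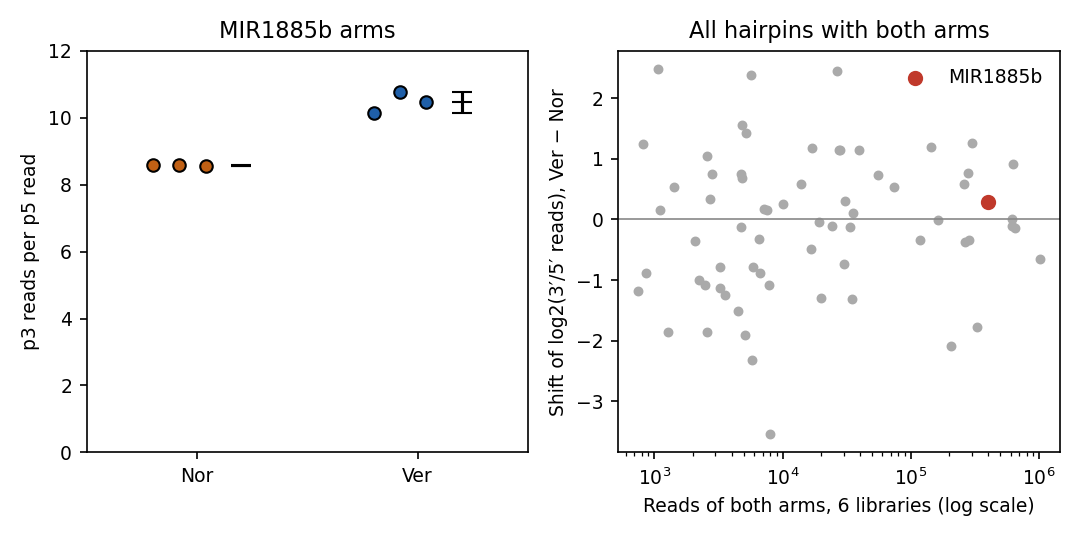
Left, reads of bra-MIR1885b-p3 per read of bra-MIR1885b-p5 in each library, with mean and SD beside the points. Right, the shift of the log2 ratio of 3′ to 5′ arm reads from Nor to Ver (vertical axis) against the reads of both arms over 6 libraries (horizontal axis, log scale) for 67 hairpins, where MIR1885b in red sits at 0.29 and most hairpins lie farther from 0.

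The sequences nearest in pattern to p3 were found among 196 sequences with a mean of at least 100 RPM. Likeness was the root mean square difference of log2 RPM, each centred on its mean over the 6 libraries. The nearest was bra-miR403-3p (A05), at 0.058, which rose by 0.45 on the log2 scale (SE 0.070). It was followed by bra-miR156f-3p_L-1 (A09), at 0.070, which rose by 0.60 (SE 0.063). bra-miR159a (A07) and ath-miR166a-3p were both at a distance of 0.103, and bna-MIR166e-p5_1ss4AT at 0.104. All 5 were called higher in Ver, with edgeR adjusted p-values between 3.14e-05 and 0.00535. Their direction follows from the choice by likeness to p3 in the same libraries, and these p-values add no support. bra-MIR1885b-p5 was 15th in this order, at 0.146. Within Nor the centred log2 RPM of p3 was -0.295, -0.287 and -0.189, and that of p5 was -0.153, -0.145 and -0.042. Within Ver the values of p3 were 0.125, 0.349 and 0.297 and those of p5 were 0.025, 0.163 and 0.152. In both sequences Nor 3 was the highest Nor library and Ver 1 the lowest Ver library. The 6 libraries are shared by all of these points, and the likeness is a description without a test.

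**Figure D5:**
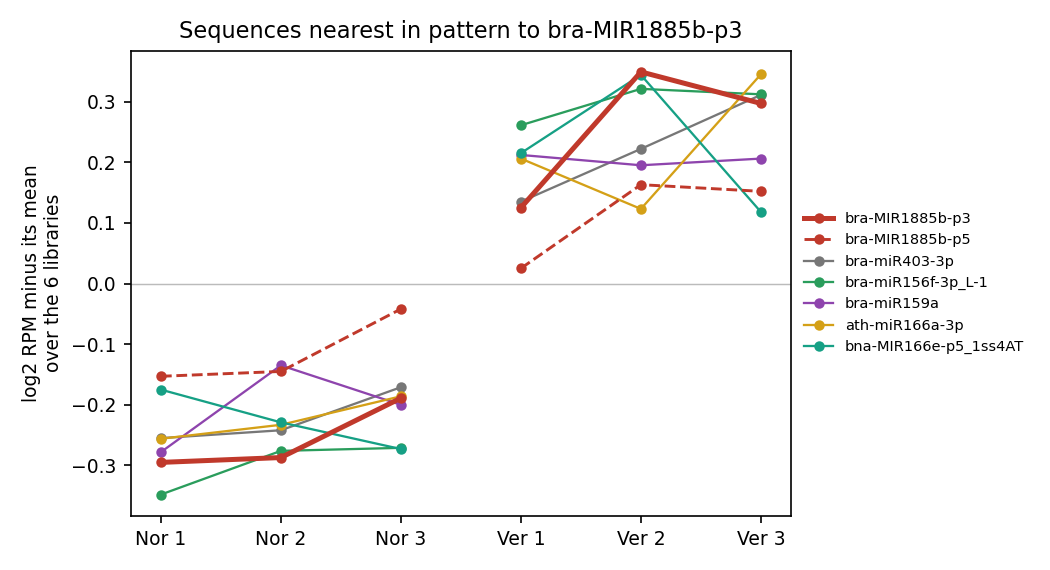
log2 RPM minus its mean over the 6 libraries (vertical axis) in each library (horizontal axis) for bra-MIR1885b-p3 (thick red), bra-MIR1885b-p5 (dashed red) and the 5 nearest sequences. All lines lie below 0 in Nor and above 0 in Ver, with p5 between -0.153 and 0.163 and closer to 0 than p3 in each library.

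miRNAs with roles related to those of miR1885 were then counted. The counts stand beside 28.1% called higher and 32.8% called lower among all 405 sequences tested. The first list held miRNAs known in some plant to act on resistance genes of the NBS-LRR class. That knowledge concerns their mature forms, and the names of the listed sequences mark other pieces of a precursor with substitutions. The list had 3 tested sequences, with a median log2 fold change of -1.38, of which 1 was called in edgeR, lower in Ver. That was cas-MIR472-p3_1ss14GT (22 nt), which fell from 718.3 ± 70.6 to 274.9 ± 51.7 RPM (SD, n = 3). The fitted log2 change was -1.38 (SE 0.147), and edgeR gave an adjusted p of 3.17e-05. ghr-MIR482b-p5_2ss14GC18AG (18 nt), which the table also names as the p3 arm, had a log2 fold change of -1.62 with a wide SE of 0.745 (edgeR, adjusted p = 0.0834). gra-MIR482d-p3_2ss16AT18AT (19 nt) stood at 13.1 ± 5.17 RPM for Nor and 21.5 ± 4.99 RPM for Ver (edgeR adjusted p = 0.222, SD, n = 3). Both MIR1885b sequences were higher in Ver, opposite in direction to the miR472 sequence. Of the sequences not called, the ghr-MIR482b one pointed down and the gra-MIR482d one up (log2 fold change 0.71, SE 0.488).

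The second list held sequences of families known to trigger secondary, phased small RNAs. It was taken by family number, so it also holds opposite arms and variants that are not themselves known triggers. Of its 15 tested sequences, 4 were called higher and 6 lower (28.1% and 32.8% of all 405), with a median log2 fold change of -0.34. bra-miR390-5p, which directs the formation of small RNAs against auxin response factors in Arabidopsis, rose from 21299 ± 452.5 to 35077 ± 2909 RPM (SD, n = 3, log2 fold change 0.72, SE 0.067). Its other arm, bra-miR390-3p_R-1, rose by 1.91 on the log2 scale (SE 0.070). bra-miR400-5p, whose Arabidopsis counterpart acts on pentatricopeptide repeat genes, fell from 6374 ± 180.6 to 4126 ± 254.1 RPM (log2 fold change -0.63, SE 0.070). The edgeR adjusted p-values of these were 1.40e-05, 3.58e-08 and 4.27e-05, respectively.

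The third list held sequences of families known to act on flowering time or the change from juvenile to adult growth. It too was taken by family number and includes opposite arms and variants. Of its 62 tested sequences, 26 were called higher and 18 lower (28.1% and 32.8% of all 405), with a median log2 fold change of 0.19. bra-miR824, whose Arabidopsis counterpart acts on the floral repressor gene AGL16, rose from 41007 ± 1646 to 74735 ± 4686 RPM (a log2 change of 0.87, SE 0.061, with an edgeR adjusted p of 1.83e-06). bra-miR159a, which acts on GAMYB-like transcription factors, rose by 0.41 on the log2 scale (SE 0.053), at an edgeR adjusted p of 1.22e-04. bra-miR156a-5p, which acts on SPL transcription factors and keeps plants juvenile, stood at 61510 ± 4433 RPM for Nor and 54654 ± 6714 RPM for Ver and did not pass the test (edgeR adjusted p = 0.126, SD, n = 3). The abundance of p3 was in the range of these well-known miRNAs, between ath-miR166a-3p above it and bra-miR156a-5p below it.

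Other miRNAs of the Brassica lineage formed the last list. Of its 41 tested sequences, 10 were called higher and 20 lower, with a median log2 fold change of -0.57. Of 52 tested sequences of 22 nt, the length of both miRBase stretches, 13 were called higher and 16 lower, with a median of 0.11. Over all 405 sequences tested, 28.1% were called higher and 32.8% lower, with a median of -0.19. Differences between the lists, or between a list and all sequences, were not tested.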

How the data were processed

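Small RNA was sequenced from 3 Nor and 3 Ver libraries of germinated seeds. According to the study, reads of 18 to 25 nt were matched to miRBase precursors with BLAST after removal of other RNA classes. The authors deposited estimated counts (raw reads per listed small RNA, summed over isoforms of an arm and divided between rows) and a normalized signal (the raw value times 1 factor per library, 0.606 to 1.222; the basis of the factors is not given in the sources used here). The study names the B. rapa v3.0 genome for its mRNA reads; the genome build of the small RNA positions is not given explicitly. No comparison columns of the authors were used.

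Rows with the same mature sequence were added and rounded to whole reads; both MIR1885b sequences had 1 row each with whole values. Of 284 sequences with at least 100 reads, 17 listed the same 6 values as another sequence, so some reads were listed more than once, but neither MIR1885b sequence was among them. One hairpin was left out of the arm comparison for this reason. Counts were filtered with filterByExpr (405 sequences tested, 484 not) and fitted with edgeR 4.0.16 (TMM, quasi-likelihood test, group as the only term) in R 4.3.3, with Benjamini-Hochberg adjustment over all sequences tested. The common biological coefficient of variation was 0.146. The fit was tested on simulated data. Log2 RPM used a prior count of 0.5. Shares and arm ratios were compared by exact permutation tests with scipy 1.17.1, and folds used RNAfold 2.7.2. Alternatives were DESeq2 1.42.0, limma 3.58.1 on the deposited normalized signal, other scalings and filters, 1 row per name, a replicate block, and leaving out each library.

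All sequences named miR1885 or MIR1885 were reported. Further names were the 5 nearest in pattern to the most abundant of them and the 3 most abundant tested sequences of each of the first 3 lists; the other lists were given as counts. The members and lists were chosen with earlier results of these data known. The first list held miR472, miR482, miR825, miR1507, miR1510, miR2109, miR2118, miR5300, miR6019, miR6027. The second held miR161, miR173, miR390, miR393, miR400, miR472, miR825, miR828, and so shared miR472 and miR825 with the first. The one on flowering and phase change held miR156, miR157, miR159, miR169, miR172, miR319, miR399, miR824.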

Additional observations from a re-analysis of the deposited data

How the results depend on the processing

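The log2 fold change of bra-MIR1885b-p3 stayed between 0.49 and 0.65 and that of bra-MIR1885b-p5 between 0.20 and 0.36 over the 18 alternatives run, all with an adjusted p under 0.05 (largest 0.00102 and 0.0357). Leaving out each library gave 0.50 to 0.59 for p3 and 0.21 to 0.30 for p5. The sum stayed between 0.23 (p5 alone) and 0.62 over 19 alternatives. At an adjusted p under 0.05, between 189 (of 264 tested) and 283 (of 416 tested) sequences were called. The 175 at the study's thresholds used an unadjusted p. The arm share difference was 1.60 to 1.84 percentage points with each library left out. The log2 ratio of the share of listed reads was 0.40 to 0.52 with each library left out, and it moved to 0.27 without the most abundant sequence. bra-miR156a-5p passed the test with library totals only (log2 fold change -0.19, adjusted p = 0.0279) and without Ver 3 (-0.25, adjusted p = 0.0177), and ghr-MIR482b-p5_2ss14GC18AG without Ver 1 (-2.91, adjusted p = 0.0161).

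With the replicate number as a block, 204 sequences were called, and the log2 fold change was 0.51 for p3 (adjusted p = 0.00102) and 0.23 for p5 (adjusted p = 0.034). Deviations from the group means had correlations of 0.133, -0.0602 and 0.031 between same-numbered libraries. The study's methods do not say whether same-numbered libraries shared a dish, and these correlations cannot decide it. Reads per locus, variants within a row and absolute amounts could not be read from these files, and shares of 3 against 3 libraries cannot pass an exact test at 0.05.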
